A study of Mus musculus with 4 samples.

Results

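The structural subunits of the mitochondrial respiratory chain and ATP synthase were described across immune cells of melanoma-bearing mice that had or lacked Ndufa4. Genes were taken by symbol: the Nduf a, b, c, s and v subunits and Ndufab1 of complex I, Sdha to Sdhd of complex II, the Uqcr genes and Cyc1 of complex III, Cox4 to Cox8 of complex IV, the Atp5 genes of complex V, and the protein genes of mitochondrial DNA (mtDNA). Ndufa4, its paralog Ndufa4l2 and pseudogenes named as such were left out. The rule gave 97 of the 32285 genes in the files, of which 84 are encoded in the nucleus and 13 in mtDNA. Complex I had 36 nuclear and 7 mtDNA genes, complex II 4 nuclear genes, complex III 9 and 1, complex IV 18 and 3, and complex V 17 and 2.

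Single-cell RNA libraries were made from male C57BL/6 mice, 8 weeks old, on day 18 after B16-F10 melanoma cells, a mouse melanoma line, were implanted under the skin. The wild-type (WT) and Ndufa4-deficient (KO) groups carried the same tumour, and no drug is named. CD45+ cells were sorted from tumours and CD45+CD11b+ cells from spleens, and equal cell numbers from 3 mice of each genotype (3-4 in the protocol) were pooled per organ. There was therefore 1 library per group and no replicate: differences are sizes in these 4 libraries, without a test. Which part of Ndufa4 the mutant lacks, and whether the loss was in all cells, the sources used here do not say.

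Complex I and complex II pass electrons from NADH and succinate to coenzyme Q, complex III passes them on to cytochrome c, and complex IV gives them to oxygen. Complexes I, III and IV pump protons, and complex V uses the gradient to make ATP. Cytochrome b of complex III, the catalytic core of complex IV, a part of the membrane arm of complex I and a pair of complex V subunits come from mtDNA, which is transcribed as long precursors, whereas complex II is wholly nuclear. Neutrophils rely mainly on glycolysis, while macrophages shift between glycolysis and oxidative phosphorylation with their state.

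The promoters of 3 complex IV subunits are shown, to set widely used forms beside the scarce form that differed most between genotypes. Cox6a1 is the form of subunit 6a that most tissues use, and its level varied little between classes of cells. Cox7a2 is the widely used form of subunit 7a, and Cox7a1, its heart and muscle form, was the lower of the 2 members past 1.5-fold in tumour phagocytes. Each line gives the 250 bases before the RefSeq transcription start in GRCm38.p6, 5′ to 3′ on the gene's strand. Capitals mark matches to the NRF1 motif or the ETS motif CCGGAAG on either strand.
Cox6a1: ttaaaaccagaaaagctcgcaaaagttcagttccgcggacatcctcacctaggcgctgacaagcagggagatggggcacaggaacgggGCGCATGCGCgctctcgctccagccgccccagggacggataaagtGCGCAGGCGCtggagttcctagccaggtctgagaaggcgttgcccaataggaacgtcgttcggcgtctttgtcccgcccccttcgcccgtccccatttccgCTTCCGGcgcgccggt
Cox7a2: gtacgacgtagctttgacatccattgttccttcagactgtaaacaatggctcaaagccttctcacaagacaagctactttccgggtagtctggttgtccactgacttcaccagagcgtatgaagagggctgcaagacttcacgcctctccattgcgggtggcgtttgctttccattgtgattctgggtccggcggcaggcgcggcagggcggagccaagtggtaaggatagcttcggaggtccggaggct
Cox7a1: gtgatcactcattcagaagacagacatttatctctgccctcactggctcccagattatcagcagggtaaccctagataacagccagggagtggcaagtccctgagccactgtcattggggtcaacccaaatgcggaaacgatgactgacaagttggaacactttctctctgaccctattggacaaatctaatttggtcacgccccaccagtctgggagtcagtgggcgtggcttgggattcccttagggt
The Cox6a1 sequence lies at chr5:115348959-115349208 on the minus strand, has 62.8% GC and held 2 NRF1 matches and 1 ETS match. The Cox7a2 sequence (chr9:79759854-79760103, minus strand, 54.8% GC) and the Cox7a1 sequence (chr7:30183921-30184170, plus strand, 51.2% GC) held neither motif. Of the 84 nuclear genes, 67 matched the RefSeq promoter table by symbol, with 72 promoters that run from 250 bases before to 50 after the start. An NRF1 match, for the nuclear respiratory factor that is known for driving such genes, was in 18 of the 72 (25%), against 4.60% of all 32851 promoters of that length. An ETS match was in 17 (23.6%) against 8.86%, and TATAAA on the gene's strand was in 3 (4.17%) against 8.32%. The median GC content was 57.5% over the 72 promoters and 52.7% over all. Both the NRF1 and the ETS motif are GC-rich, and a match is a description of the letters, not of binding.

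Each count was a unique molecular identifier (UMI), 1 captured mRNA molecule of a gene in a cell. The 4 libraries held 4798 to 8107 barcodes, of which 3847 to 7020 were kept, with medians of 4284 to 10262 UMIs per cell, the highest in the tumour KO pool. Libraries shared 6 to 22 barcodes in a pair, at most 0.359%. Ndufa4 itself was at 276 UMIs per 1000000 UMIs (CPM) in the tumour WT cells and 15.7 in the tumour KO cells, and at 267 and 0.659 CPM in spleen, which goes with the labels and leaves 863 Ndufa4 UMIs in the tumour KO pool. Cells were put in classes by counts of marker genes, 8.78% to 19.0% of kept cells stayed unassigned, and 9.20% to 13.2% of assigned cells lay exactly at a limit of the gate. That share was highest in conventional dendritic cells of the spleen (51.0% in WT, 50.5% in KO), and was 28.2% and 33.8% in spleen monocytes and 23.6% and 17.9% in tumour neutrophils. Cells with over 10% mitochondrial UMIs were left out, a limit that acts on the mtDNA genes themselves, so values without it are given beside the main ones. Of the barcodes with enough UMIs and genes it took 14.6% in tumour WT, 23.4% in tumour KO, 6.73% in spleen WT and 10.2% in spleen KO. Intervals are exact 95% intervals of counting error only, a gene was compared where it had at least 50 UMIs over both libraries, and "rose" and "fell" are used for at least 1.5-fold.

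Mononuclear phagocytes lacking Ndufa4 carried nearly the same amount of nuclear respiratory chain mRNA as WT cells, complex by complex, in both organs. The summed nuclear members of tumour mononuclear phagocytes, the class of macrophages, monocytes and further phagocytes with neither marker set (197 cells in WT, 28 in KO), stood at 18497 CPM in 1226 WT cells and 18476 CPM in 926 KO cells, a log2 ratio of -0.00 (interval -0.01 to 0.01). In spleen phagocytes the sum was 15014 CPM in 2361 WT cells and 14700 CPM in 1136 KO cells (-0.03, interval -0.04 to -0.02). The phagocytes of both genotypes thus lay within counting error of each other in the tumour and 0.03 apart on the log2 scale in the spleen. The spleen difference had the other sign, at 0.01 and 0.02, when each cell had equal weight or was thinned to 1000 UMIs. Markers of other cells were not alike in the tumour phagocytes: T cell markers summed to 17.3 CPM (WT) and 58.4 CPM (KO), and the platelet list, which holds Pf4, to 1269 and 83.6 CPM. Their part in the values was not tested.

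The 5 complexes, taken one by one in tumour phagocytes, all lay within 0.05 on the log2 scale. Nuclear complex I, the NADH dehydrogenase, went from 4962 to 4989 CPM (0.01) and complex II, the succinate dehydrogenase, from 375 to 387 CPM (0.05). Complex III was at 1904 and 1907 CPM (0.00), complex IV, the cytochrome c oxidase in which Ndufa4 sits, at 5218 and 5293 CPM (0.02), and complex V at 6039 and 5899 CPM (-0.03). In spleen phagocytes the same sums differed by -0.02, -0.04, 0.01, -0.03 and -0.05.

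**Figure D1:**
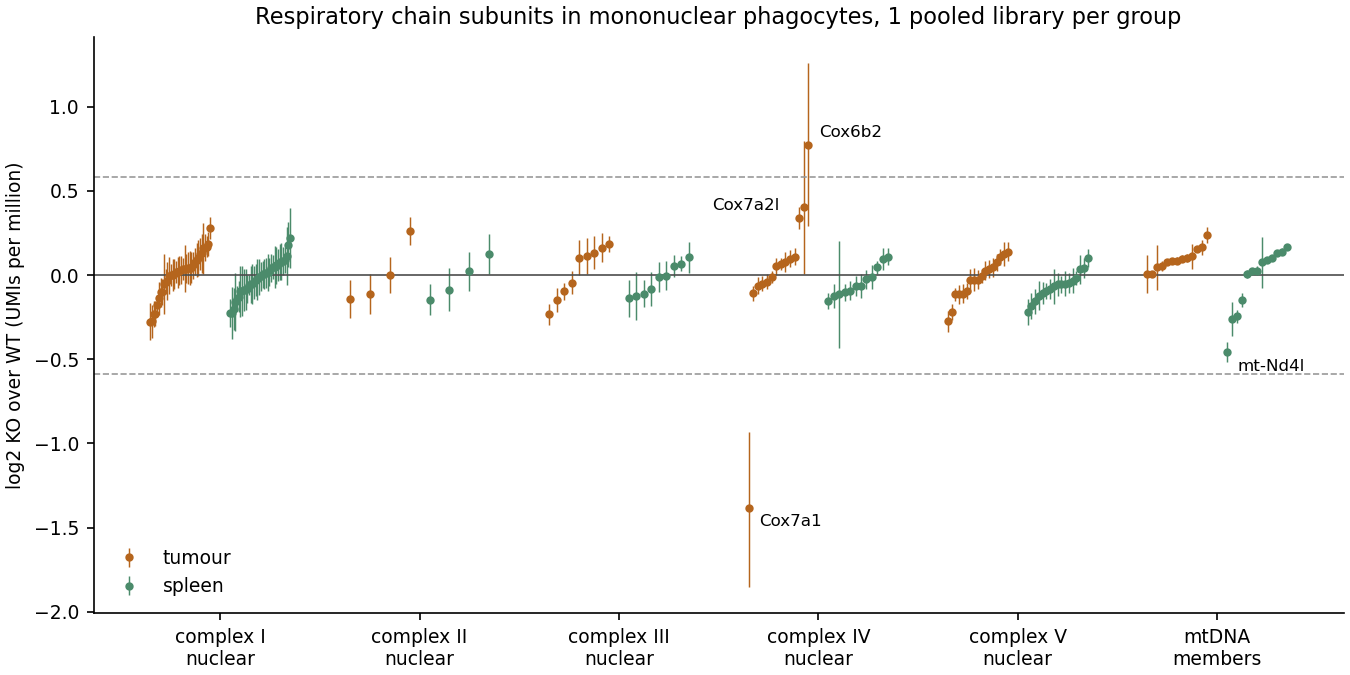
Log2 ratio of KO over WT CPM for each compared respiratory chain gene in mononuclear phagocytes, by complex, in tumour (brown) and spleen (green). Points are genes sorted by ratio, bars are 95% intervals of counting error, and dashed lines mark 1.5-fold. Only Cox6b2 and Cox7a1, both in the tumour, lie past them.

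Of the 84 nuclear members, 80 had enough UMIs to compare in tumour phagocytes, and Cox6b2 rose while Cox7a1 fell. Over all 10889 genes compared there, 9.61% rose and 10.9% fell by that measure, so the members' shares were below both. Among the 6527 genes with at least 500 UMIs, 14.6% were past 1.5-fold in either direction, against 0 of the 77 nuclear members counted as deeply. Cox6b2, a subunit form known from testis, had 67 UMIs in WT and 82 in KO, or 3.41 and 5.82 CPM (log2 0.77, interval 0.29 to 1.26). Cox7a1 had 189 and 52 UMIs, or 9.62 and 3.69 CPM (log2 -1.38, interval -1.85 to -0.93). Cox7a1 lies at 30184144 to 30186078 on the plus strand of chromosome 7. A UMI of Cox7a1 was in 142 of 1226 WT cells (11.6%) and 45 of 926 KO cells (4.86%), with at most 5 and 3 UMIs in a cell, while median depth was 14131.5 and 13785 UMIs. Of tumour WT neutrophils, 5 of 647 (0.773%) had one, at a median depth of 3691. The make-up of the class bears on Cox7a1: 111 of its WT UMIs were in macrophages, 25 in monocytes and 53 in the phagocytes that are neither, against 37, 14 and 1 in KO. The 197 WT cells that are neither had 20.9 CPM, and the part of their number in the fall was not tested. Both genes are scarce forms beside widely used paralogs. None of the 4 members left out reached 50 UMIs: Cox6a2 had 33 and 13, Cox8b 0 and 1, and Cox7b2 and Cox8c had none.

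In spleen phagocytes 78 nuclear members were compared and none reached 1.5-fold, with 6.02% of 10915 genes past it in either direction. Among the 7215 genes with at least 500 UMIs, 1.52% were past it, and again 0 of 77 nuclear members. Cox7a1 was at 1.19 CPM (30 UMIs) in spleen WT and 1.24 CPM (13 UMIs) in spleen KO, and Cox6b2 at 12.0 and 11.1 CPM, with log2 ratios of 0.06 (interval -0.999 to 1.05) and -0.11 (interval -0.43 to 0.20). The Cox7a1 counts there are too few to show a difference of 1.5-fold.

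Small differences shared by both organs were present for 13 of the 78 members compared in both, 4 higher and 9 lower in KO, each with an interval that leaves out 0. That is 5.13% higher and 11.5% lower, beside 6.33% and 5.18% of the 10326 genes compared in both organs. Deeply counted genes pass this measure more easily. In each organ 77 nuclear members had at least 500 UMIs. Of all genes compared, 6527 of 10889 had that depth in tumour and 7215 of 10915 in spleen. The shares of members and of all genes are therefore not like for like. Cox7a2l, counted here with complex IV by its symbol, was the furthest above: 217 CPM in WT and 274 CPM in KO tumour phagocytes (0.34, interval 0.28 to 0.40), and 401 and 432 CPM in spleen (0.11, interval 0.06 to 0.16). The KO value was the higher one in each organ, while both tumour values lay below both spleen values. The other 3 higher members were Uqcrfs1, the Rieske iron-sulfur protein of complex III (0.16 tumour, 0.10 spleen), Uqcrh, its hinge protein (0.19 and 0.07), and Atp5h of the complex V stalk (0.11 and 0.10). The lower members, in order of the smaller of their differences, began with Atp5md, a small membrane subunit of complex V, at 296 and 244 CPM in tumour (-0.28, interval -0.34 to -0.21) and 201 and 173 CPM in spleen (-0.22, interval -0.30 to -0.14). Sdha, the flavoprotein of complex II, followed at -0.14 and -0.15, then Uqcr11 (-0.15 and -0.11), Cox7c (-0.11 and -0.15) and Ndufa1 (-0.10 and -0.22). All 13 are within 1.5-fold, and the intervals do not hold the spread between mice.

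Several tumour differences were not repeated in the spleen. Ndufa12, an accessory subunit of complex I, was at 92.9 and 76.7 CPM in tumour (-0.28) and at 32.1 and 37.4 CPM in spleen (0.22). Ndufa6 was at 196 and 238 CPM in tumour (0.28) and 311 and 299 CPM in spleen (-0.06). Sdhb, the iron-sulfur subunit of complex II, was at 129 and 155 CPM (0.26) against 82.9 and 84.2 CPM (0.02), so that Sdha and Sdhb of 1 complex lay on opposite sides of 0 in the tumour. Uqcrb of complex III had -0.23 and -0.01, and Atp5c1 of complex V 0.14 and -0.06.

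The sum of the mtDNA members was slightly higher in KO phagocytes of both organs, and all 13 genes were within 1.5-fold. Their sum was 29478 CPM in WT and 31301 CPM in KO tumour phagocytes (0.09, interval 0.08 to 0.09), and 37711 and 39898 CPM in spleen (0.08, interval 0.08 to 0.09). With no limit on mitochondrial UMIs the ratios were 0.14 and 0.12. The limit took 3.77% of WT and 6.84% of KO phagocytes in the tumour, and 2.15% and 7.49% in the spleen, where it took 11.8% of WT and 27.9% of KO macrophages. High mitochondrial shares are also a sign of damaged cells, and that part was not tested. In the tumour the ratios ran from 0.01 for mt-Atp8 (81.3 to 81.7 CPM) to 0.24 for mt-Nd3 (379 to 447 CPM).

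In the spleen the mtDNA genes split. In phagocytes, mt-Nd4l, a small core subunit of complex I, went from 380 CPM in WT to 277 CPM in KO (-0.46, interval -0.52 to -0.40). The ratios of mt-Nd3 (816 to 688 CPM, -0.25), mt-Atp8 (123 to 103 CPM, -0.26) and mt-Nd5 (-0.15) were also below 0. Those of mt-Co2 (5420 to 6080 CPM, 0.17), mt-Co3 (0.13), mt-Co1 (0.10) and mt-Cytb (0.14) were above it. Complex IV genes thus made up 57.0% of mtDNA UMIs in WT and 58.8% in KO spleen phagocytes, and complex I genes 20.7% and 19.3%. The higher complex IV share in KO was not particular to the spleen. In tumour phagocytes it was 56.8% and 57.4%, and it was higher in KO in 16 of 17 pairs of class and organ. Over the 6 spleen classes without neutrophils, mt-Nd4l had an interval below 0 in 6, between -0.53 and -0.36. In the 9 tumour classes mt-Nd4l had an interval below 0 in 0 and above 0 in 1, and mt-Nd3 one above 0 in 7. Classes of an organ share their 2 libraries, so these counts are not replicates. The mt-Nd4l and mt-Atp8 frames lie in transcripts with mt-Nd4 and mt-Atp6, and how reads were split between them is uncertain.

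**Figure D2:**
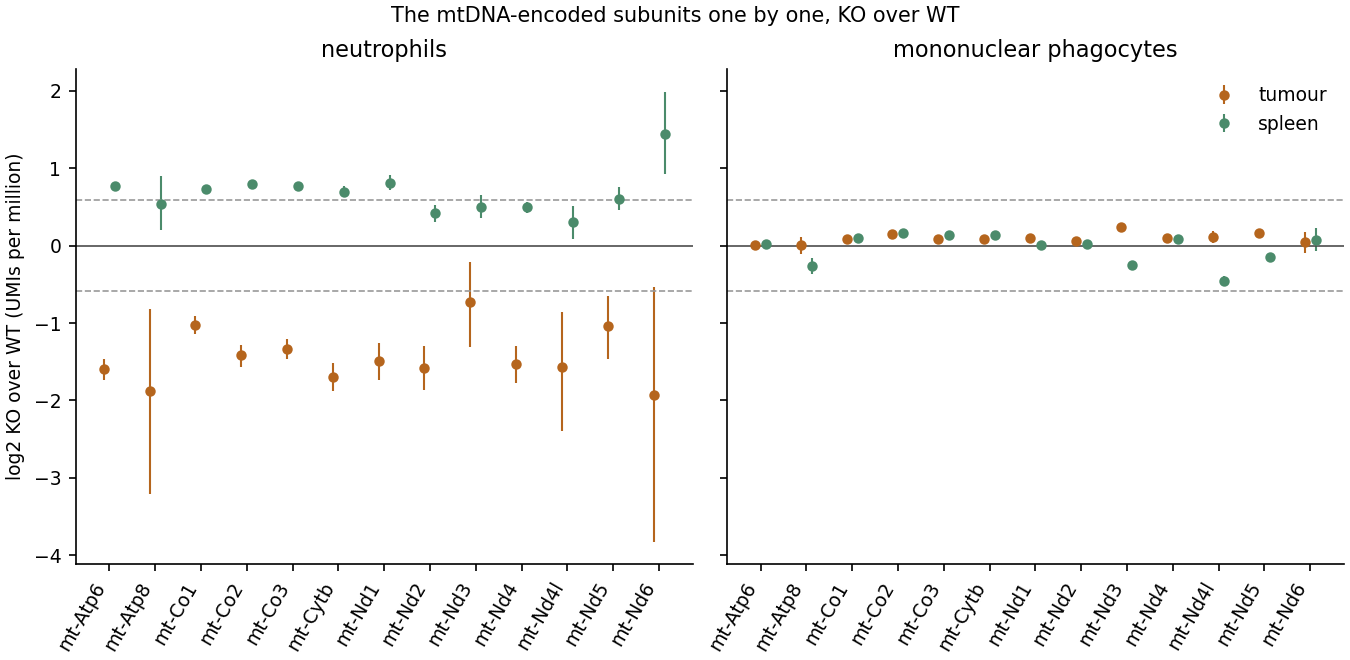
Log2 ratio of KO over WT CPM for each of the 13 mtDNA genes in neutrophils (left) and mononuclear phagocytes (right), tumour in brown and spleen in green. Bars are 95% intervals of counting error and dashed lines mark 1.5-fold. All 13 lie below the lower line in tumour neutrophils, while in phagocytes mt-Nd4l of the spleen is the furthest from 0.

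Neutrophils were the class in which the chain differed most between genotypes, and the mtDNA genes went opposite ways in the 2 organs. In tumour neutrophils the mtDNA sum fell from 24015 CPM in 647 WT cells to 9155 CPM in 78 KO cells (-1.39, interval -1.45 to -1.34), and all 13 genes fell, with 17.5% of 4506 genes as far down. In spleen neutrophils the sum rose from 6534 CPM in 2265 WT cells to 10822 CPM in 1770 KO cells (0.73, interval 0.71 to 0.74), and 8 of 13 genes rose, with 20.7% of 8650 genes as far up. With each cell thinned to 1000 UMIs the spleen ratio was 0.52, which is under 1.5-fold. The tumour WT neutrophils were the high group of the 4, and the spleen WT neutrophils the low one. Without the mitochondrial limit the tumour values were 36617 and 12480 CPM (-1.55) and the spleen ratio was 0.69. In the tumour the least lower gene was mt-Nd3 (-0.73) and the most lower mt-Nd6 (-1.92, 120 and 4 UMIs). The catalytic mt-Co1 fell from 4333 to 2130 CPM (-1.02) and mt-Cytb of complex III from 2782 to 857 CPM (-1.70). The KO value rests on 78 cells of 1 pool.

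The nuclear members of neutrophils were higher in KO in both organs. Their sum was 6410 CPM in WT and 9109 CPM in KO tumour neutrophils (0.51, interval 0.45 to 0.57), where 31 of 65 compared members rose and none fell, beside 21.0% of all genes higher. In spleen neutrophils it was 7122 and 8440 CPM (0.24, interval 0.23 to 0.26), with 32 of 78 higher and none lower, beside the same 20.7%. In both organs the members' share was above that of all genes. With each cell thinned to 1000 UMIs the spleen ratio was 0.08, and without the cells rich in granule mRNA described below it was 0.07. Of the 65 members compared in both, 14 rose in both, which is 14 of the 31 in tumour and of the 32 in spleen. Over all 4436 genes compared in both neutrophil classes, 135 (3.04%) rose in both, against 21.5% of these members. The members' share was already above that of all genes in each organ alone. A larger share in both would follow without any link between the organs, so the overlap is not a further result. The 14 include all 3 genes of the complex V ring subunit, Atp5g1, Atp5g2 and Atp5g3, with Atp5h, Atp5o, Cox7b, Ndufb2, Ndufb3, Ndufb6, Ndufb7, Ndufb11, Ndufv2, Uqcrb and the complex III core gene Uqcrc1.

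Single members carried this unevenly. In tumour neutrophils Atp5g1 rose from 15.0 to 72.5 CPM (36 and 22 UMIs; 2.27, interval 1.44 to 3.08) and Ndufb8, an accessory subunit of complex I, from 29.6 to 89.0 CPM (1.59). The smallest of the rises past the limit were Uqcrh (0.61), Uqcrq (0.63) and Atp5e (0.69). In spleen neutrophils Ndufa5 of complex I rose from 4.30 to 18.7 CPM (28 and 155 UMIs; 2.12, interval 1.54 to 2.76), Ndufa11 from 12.3 to 43.8 CPM (1.83) and Ndufa9 from 3.84 to 11.2 CPM (1.55), while Ndufb11, Uqcrfs1 and Ndufb10 were the smallest, at 0.59, 0.59 and 0.60. Complex I gave 19 of the 32 in spleen and 13 of the 31 in tumour. It is also the largest set, with 36 of the 84 nuclear members, so these counts are not read as a result about complex I. Complex II went apart: its 3 compared genes rose in tumour, among them Sdhb from 31.3 to 85.7 CPM (1.46), whereas its spleen sum was 248 CPM in WT and 212 CPM in KO (-0.23), with Sdha at 113 and 75.6 CPM (-0.58).

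The neutrophil classes differed in make-up between the pools. In the spleen a list of granule protein genes of immature neutrophils summed to 9389 CPM (WT) and 60309 CPM (KO), and cell cycle genes to 107 and 741 CPM. Cells with at least 0.2% of UMIs from Ltf, Camp and Ngp, granule genes of that stage, were 68 of 2265 in WT (3.00%) and 369 of 1770 in KO (20.8%). They held 640677 of the 6509579 neutrophil UMIs in WT and 4538072 of 8268136 in KO. The counts of members that rose and the single-gene ratios above were not repeated without these cells. Without them the nuclear sums were 6990 and 7321 CPM (0.07) and the mtDNA sums 6119 and 9266 CPM (0.60, interval 0.58 to 0.62). Within the granule-mRNA cells alone the nuclear sums were 8335 and 9360 CPM (0.17) and the mtDNA sums 10336 and 12101 CPM (0.23, interval 0.19 to 0.26). The mtDNA difference was thus close to 1.5-fold among the cells without granule mRNA and smaller among those with it. In the tumour the granule list summed to 791 and 8509 CPM, with 1 KO cell past that share, and a list of tumour neutrophil genes to 19898 and 10592 CPM. Among tumour neutrophils with a UMI of Retnlg, a gene of blood neutrophils, the nuclear ratio was 0.40 and the mtDNA ratio -1.08 (373 and 37 cells). Among those without, they were 0.55 and -1.81 (274 and 41 cells). Mononuclear phagocyte markers in tumour neutrophils summed to 271 and 356 CPM. These lists and splits were chosen after the data were seen, and whether make-up sets the difference was not tested.

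**Figure D3:**
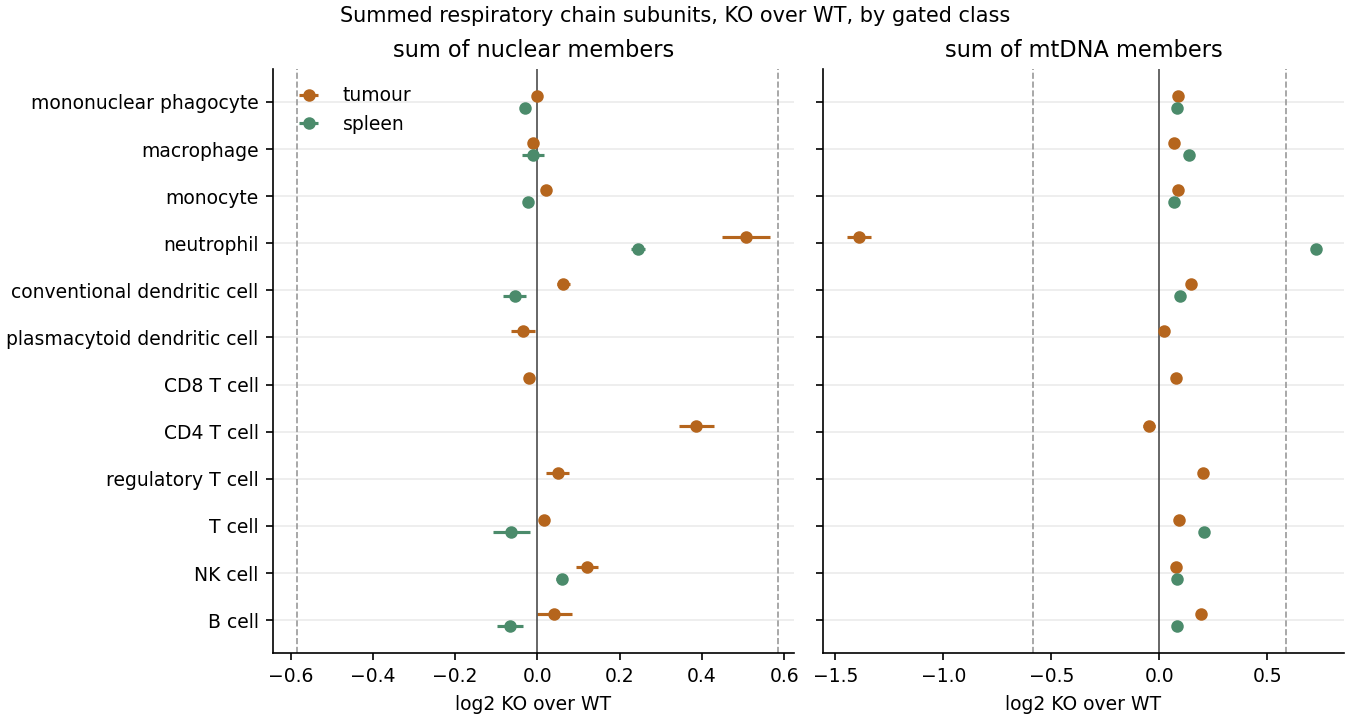
Log2 ratio of KO over WT for the summed nuclear (left) and mtDNA (right) respiratory chain genes by gated class, tumour in brown and spleen in green, with 95% intervals of counting error and dashed lines at 1.5-fold. Nuclear sums stand away from 0 in neutrophils and tumour CD4 T cells, and mtDNA sums in neutrophils alone pass 1.5-fold.

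Among lymphocytes, tumour CD4 T cells outside the regulatory class had more nuclear respiratory chain mRNA in KO. Their sum was 13999 CPM in 69 WT cells and 18299 CPM in 131 KO cells (0.39, interval 0.34 to 0.43), while the mtDNA sum was 35302 and 34195 CPM (-0.05). With no limit on mitochondrial UMIs the mtDNA sum was 41568 CPM in WT and 42491 CPM in KO, so its sign depends on the limit. Of 77 compared nuclear members 20 rose and 1 fell, beside 17.1% of 4568 genes higher and 9.52% lower. Ndufa12 rose from 46.6 to 118 CPM (1.34), Sdhb from 60.5 to 151 CPM (1.32) and Uqcrc1 from 60.5 to 119 CPM (0.98), with Uqcrq (0.59) and Cox5b (0.63) at the other end. Ndufs1, the large iron-sulfur subunit of complex I, fell from 60.5 to 31.4 CPM (-0.95, 26 and 35 UMIs). The sums of complexes I to V were all higher in KO, by 0.43, 0.44, 0.34, 0.38 and 0.37 on the log2 scale, each within 1.5-fold. A list of naive T cell genes in these cells summed to 2030 CPM in WT and 824 CPM in KO, cell cycle genes to 58.2 and 599 CPM, and phagocyte markers to 60.5 and 322 CPM. Their part was not tested.

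The remaining classes held 0 to 3 members past 1.5-fold each. Tumour macrophages (618 and 383 cells) had 2 of 80, beside 19.5% of all genes in either direction: Cox4i2, the lung form of subunit 4, rose from 6.75 to 12.4 CPM (79 and 86 UMIs; 0.88, interval 0.42 to 1.34), and Cox7a1 fell from 9.48 to 5.34 CPM (111 and 37 UMIs; -0.83, interval -1.41 to -0.28). Tumour monocytes (411 and 515 cells) had Cox6b2 alone, from 3.69 to 8.10 CPM (20 and 55 UMIs; 1.13), beside 14.4%. Cox7a1 was thus lower in KO within macrophages too, while Cox6b2 was at 3.59 and 3.76 CPM in macrophages (0.07). Conventional dendritic cells had 1, the complex I gene Ndufa5 (48.8 to 77.6 CPM, 0.67), beside 12.1%. Plasmacytoid dendritic cells had 3 beside 12.9%: Ndufs1 (-0.76) and Sdha (131 to 82.6 CPM, -0.66) fell and Ndufa12 (0.60) rose. CD8 T cells had Cox6b2 (8 and 53 UMIs; 1.14) beside 10.5%, and regulatory T cells none of 77 beside 13.2%. Natural killer (NK) cells had the complex V gene Atp5g1, from 131 to 204 CPM (0.64), beside 15.0%, and B cells Ndufs3 (1.14) and Sdhb (0.72) beside 19.2%. All of these shares of members are below those of all genes.

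In the spleen, macrophages had Ndufa12 (25.7 to 39.8 CPM, 0.63) beside 9.30% of genes in either direction, and monocytes none of 78 beside 5.41%. Conventional dendritic cells had 3 that fell, beside 9.68%: Cyc1, the cytochrome c1 of complex III, from 76.1 to 42.3 CPM (-0.85), Ndufs3 (-0.75) and Ndufv2 (-0.62), with 51, 34 and 79 UMIs in KO. T cells (70 and 171 cells) had 2 beside 11.4%, of which Ndufa8 (0.80) had an interval that leaves out 0. NK cells had 1 beside 4.97%, Cox6a2 at 3.01 and 4.93 CPM with an interval from -0.12 to 1.62, and B cells Ndufb2 (69.2 to 45.2 CPM, -0.61) beside 8.33%. No member was past 1.5-fold in the same direction in tumour and spleen for any of these classes. Nuclear sums in classes other than neutrophils and tumour CD4 T cells ran from -0.07 in spleen B cells to 0.12 in tumour NK cells, and mtDNA sums from 0.02 in plasmacytoid dendritic cells to 0.21 in spleen T cells.

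Within WT, the classes were set in order by the share of respiratory chain mRNA they held. In the tumour the nuclear sum was highest in CD8 T cells (21617 CPM), followed by macrophages (19653), plasmacytoid dendritic cells (19202), regulatory T cells (18486), conventional dendritic cells (17583), monocytes (17348), NK cells (15722), CD4 T cells (13999), B cells (13445) and neutrophils (6410). CD8 T cells thus had 3.37 times the share of neutrophils. Intervals overlap for conventional dendritic cells and monocytes, and for CD4 T cells and B cells. In the spleen the order was monocytes (15180) and conventional dendritic cells (15179), which could not be told apart, then macrophages (13323), NK cells (12486), B cells (11737) and neutrophils (7122). The mtDNA sum was ordered otherwise: B cells were highest in both organs, with 47179 CPM in tumour and 70422 CPM in spleen, and neutrophils lowest, with 24015 and 6534 CPM. With no mitochondrial limit tumour WT neutrophils stood at 36617 CPM and were above NK cells and macrophages. In KO the nuclear order also began with CD8 T cells and macrophages and ended with B cells and neutrophils.

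Single genes spread over classes by different amounts. Of the nuclear members 43 had at least 50 UMIs in each of the 16 WT classes of at least 50 cells. The largest ratio of the highest to the lowest class was 13.7 for Atp5g2, with 658 CPM in tumour CD8 T cells and 47.9 in spleen neutrophils, followed by Atp5d (12.6), Uqcrb (11.5), Atp5o (10.5) and Atp5g3 (10.2). Neutrophils were the lowest class for each of these 5. The smallest ratios were 1.64 for Atp5l (599 CPM in tumour monocytes, 365 in tumour B cells), 2.03 for Ndufa3, 2.18 for Cox6a1 (323 in spleen conventional dendritic cells, 148 in tumour neutrophils), 2.20 for Atp5md and 2.58 for Ndufa7. Without neutrophils Atp5g2 spread 2.43-fold and Cox6a1 1.68-fold, so most of the Atp5g2 spread was the low value of neutrophils. Where a subunit gene has near-identical processed copies in the genome, reads can be shared with them, and its level is uncertain.

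Complex IV is the complex with the most tissue forms, and 1 of them marked a single class in the tumour. Cox6a2, the heart and muscle form of subunit 6a, had 1253 of its 1443 UMIs in kept tumour WT cells in 79 plasmacytoid dendritic cells (86.8%), and 1353 of 1443 in the KO pool in 92 such cells (93.8%). That is 1374 CPM in WT and 1140 CPM in KO, against 4.68 and 1.67 CPM over all other kept cells. A UMI was in 88.6% of WT and 91.3% of KO plasmacytoid dendritic cells, at median depths of 13362 and 13275 UMIs, and in 1.54% and 0.957% of other cells, at 6922 and 10104.5 UMIs. With each cell thinned to 1000 UMIs the shares were 63.6% and 54.3% against 0.277% and 0.142%, which left out 2 and 0 plasmacytoid cells and 158 and 53 others. In the spleen, where the CD11b sort kept 1 plasmacytoid dendritic cell in KO and none in WT, Cox6a2 had 22 UMIs in WT and 66 in KO over all kept cells. Spleen NK cells were among the cells with Cox6a2, at the low CPM given above. The widely used Cox6a1 varied little, as given above.

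The other scarce forms were spread more thinly. Cox4i2 was mostly in tumour macrophages, with a UMI in 8.41% of WT and 11.7% of KO cells, and had 9 UMIs in WT and 6 in KO over the whole spleen libraries. Cox7a1 was likewise in 13.4% of WT and 8.62% of KO tumour macrophages against 1.22% and 1.70% of spleen macrophages. Cox6b2 had 295 of 568 UMIs of the spleen WT library and 108 of 287 of the spleen KO library in monocytes (a UMI in 10.1% and 9.16% of cells). Cells of these classes had at most 10 UMIs of Cox4i2 and 15 of Cox6b2. In cell types that should lack these forms, 0 of 647 tumour WT neutrophils had a Cox4i2 UMI, at a median depth of 3691.

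**Figure D4:**
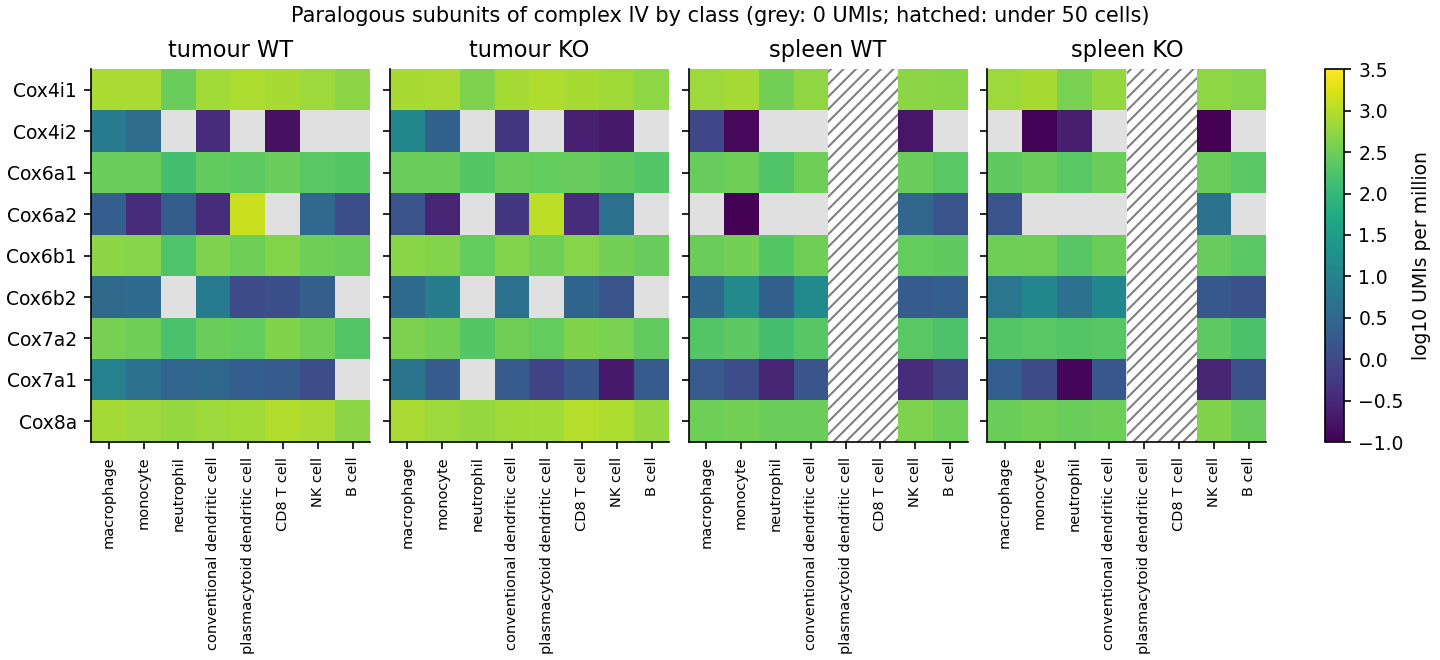
Level of paralogous complex IV subunits by class and library, as log10 CPM (colour). Grey cells had 0 UMIs, hatched classes under 50 cells. Cox6a2 stands out in plasmacytoid dendritic cells of both tumour libraries, and the widely used forms Cox4i1, Cox6a1, Cox6b1, Cox7a2 and Cox8a are present in every class shown.

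In phagocytes, T cells and NK cells of both genotypes, the summed nuclear members took a larger share of the mRNA in the tumour than in the spleen and the summed mtDNA members a smaller one. WT neutrophils went the other way, from 7122 CPM in spleen to 6410 CPM in tumour for the nuclear sum and from 6534 to 24015 CPM for the mtDNA sum. In phagocytes the nuclear sum was 15014 CPM in spleen and 18497 CPM in tumour in WT (0.30, interval 0.29 to 0.31) and 14700 and 18476 CPM in KO (0.33, interval 0.32 to 0.34). The mtDNA sum was 37711 and 29478 CPM in WT (-0.36) and 39898 and 31301 CPM in KO (-0.35). The median of all genes compared was itself at -0.35 in WT and -0.33 in KO, so the mtDNA sum moved with the median gene and the nuclear sum against it. Of 80 members 25 in WT and 22 in KO rose, 17 of them in both, beside 17.6% and 14.4% of all genes. The share of all genes alike in both genotypes was not taken, here or in T cells. Counts in both genotypes are therefore not a further result. Macrophages were 246 of 2361 WT and 176 of 1136 KO phagocytes in the spleen. In the tumour they were 618 of 1226 and 383 of 926. In macrophages the nuclear sum was 13323 CPM in spleen and 19653 CPM in tumour in WT, and 13225 and 19520 CPM in KO. In monocytes it was 15180 and 17348 CPM in WT, and 14932 and 17591 CPM in KO. The part of that make-up in the values was not tested.

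The genes that rose and fell were of several complexes. Cox8a, a small subunit of complex IV, rose in phagocytes from 356 to 746 CPM in WT (1.07) and from 350 to 780 CPM in KO (1.16). Atp5g1 rose from 102 to 322 CPM and from 96.9 to 298 CPM (1.66 and 1.62), and Atp5d, of the complex V head, from 157 to 304 and from 145 to 310 CPM (0.95 and 1.10). Against this, 4 members fell in both genotypes, among them Sdha from 140 to 84.4 and from 127 to 76.5 CPM (-0.73 in each), Ndufs1 from 52.6 to 32.3 and from 49.2 to 31.1 CPM (-0.70 and -0.66), and Cox7a2l from 401 to 217 and from 432 to 274 CPM (-0.89 and -0.66). Sdhb rose where Sdha fell, from 82.9 to 129 CPM in WT (0.64) and from 84.2 to 155 CPM in KO (0.88). The fourth, Cox6b2, fell by 1.81 and 0.93 on the log2 scale. The median of all genes was itself lower in the tumour, and the share of all genes that fell is not given here. The count of 4 is therefore not read as a trait of the members. Cox4i2 had 5 UMIs in spleen WT and 1 in spleen KO phagocytes against 112 and 106 in the tumour, for log2 ratios of 4.84 (interval 3.58 to 6.50) and 6.30 (interval 3.79 to 11.61). Cox7a1 rose from 1.19 to 9.62 CPM in WT (3.01) and from 1.24 to 3.69 CPM in KO (1.57).

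In T cells the sums were further apart than in phagocytes. The nuclear sum was 12420 CPM in spleen and 20427 CPM in tumour in WT (0.72), and 11887 and 20644 CPM in KO (0.80). In WT 51 of 77 members rose, beside 21.6% of genes, and in KO 58 of 78, beside 24.6%, with 50 in both. Of 13 mtDNA genes 8 fell in each genotype, 7 of them in both, beside 32.4% and 33.6% of genes lower. Sdhb rose from 37.1 to 149 CPM in WT and from 58.6 to 151 CPM in KO, Cox5b from 133 to 409 and from 104 to 456 CPM, and Cox8a from 286 to 896 and from 251 to 939 CPM. Sdha fell from 157 to 98.5 CPM (-0.67) and from 147 to 80.6 CPM (-0.86), and mt-Co1 from 14273 to 7046 CPM in WT (-1.02) with -1.13 in KO. Spleen T cells were 70 in WT and 171 in KO, against 744 and 1908 in the tumour. CD8 T cells were 19 of the spleen WT and 45 of the spleen KO cells, against 448 and 1255 of the tumour cells, and the part of that make-up was not tested. In NK cells 17 of 77 rose in WT and 23 of 78 in KO, beside 9.91% and 12.0%. Sdha was lower in tumour NK cells too, at 150 and 110 CPM in WT (-0.45) and 147 and 77.1 CPM in KO (-0.93), as was Ndufs1 (-0.68 and -0.89), whereas Cox7a2l was higher (0.43 and 0.29).

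The ratio of mtDNA to nuclear UMIs puts both sides together. It was lower in tumour than in spleen in 16 of 17 pairs of class and genotype, and in 15 of 17 with no mitochondrial limit. T cells went from 4.44 to 1.67 in WT and from 5.37 to 1.77 in KO, B cells from 6.00 to 3.51 and 6.65 to 3.90, phagocytes from 2.51 to 1.59 and 2.71 to 1.69, and NK cells from 2.89 to 1.98 and 2.94 to 1.92. The exception at the 10% limit was WT neutrophils, at 0.917 in spleen and 3.75 in tumour, where all 13 mtDNA genes rose (beside 19.4% of genes higher) and 22 of 75 nuclear members fell (beside 43.0% lower) with 10 that rose. In both genotypes 6 nuclear members of neutrophils rose and 6 fell, led by Atp5d (1.15 and 1.59), Ndufa12 (1.09 and 1.72) and Cox8a (0.96 and 1.07) and, lower, by Atp5a1 of the complex V head (-1.24 and -1.17), Uqcrc2 (-1.10 and -1.07) and Ndufs6 (-0.89 and -1.20). The share of all genes that rose or fell in neutrophils of both genotypes was not taken. The counts of 6 are therefore not read as a trait of the members. The ratio of KO neutrophils went from 1.28 to 1.01, and from 1.36 to 1.38 without the limit. Classes overlap where one contains another, pairs of a genotype share libraries, and organ, sort, dissociation and library cannot be told apart.

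**Figure D5:**
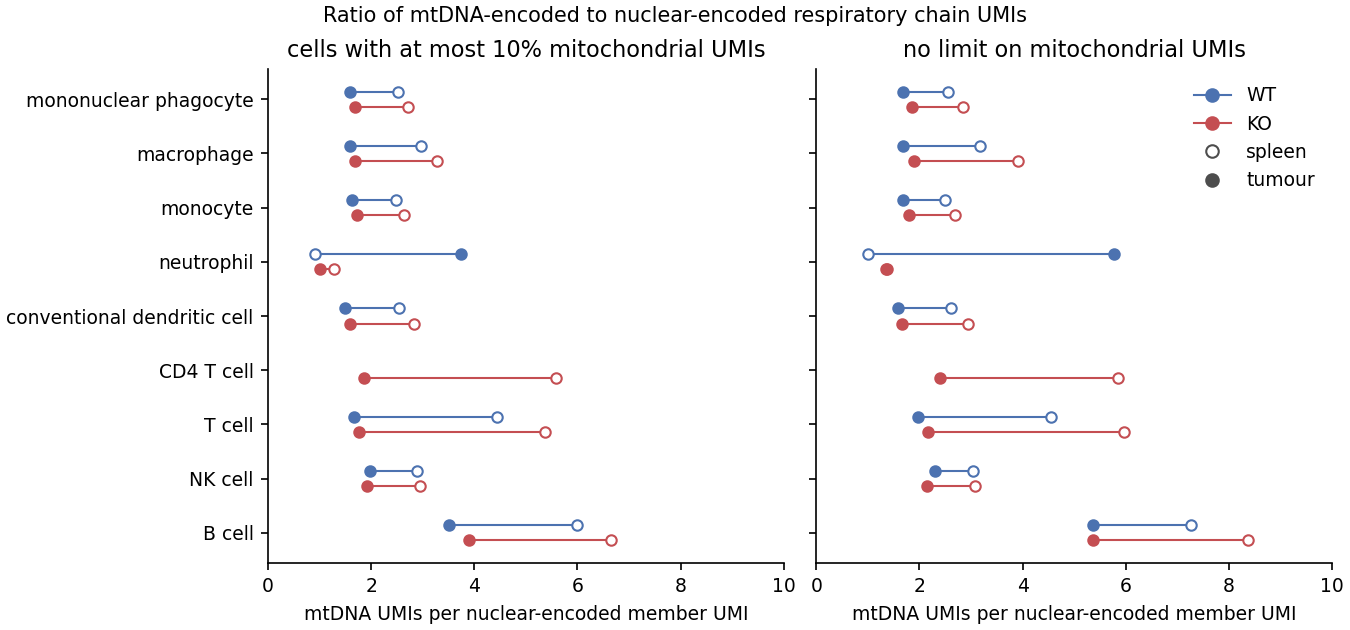
Summed mtDNA UMIs per nuclear respiratory chain UMI in spleen (open) and tumour (filled) by class, WT in blue and KO in red, with the 10% limit on mitochondrial UMIs (left) and without it (right). Tumour values lie to the left of spleen values except in WT neutrophils, at 0.917 and 3.75 with the limit, and by a small margin in KO neutrophils without it.

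Genes around the chain were counted in tumour phagocytes by list. Over all 10889 genes compared in that class, 9.61% rose and 10.9% fell, and the counts below are to be read beside these shares. Of 13 genes for electron carriers and coenzyme Q synthesis 2 rose, Coq2 (17.9 to 28.5 CPM, 0.68) and Coq10b (43.2 to 70.1 CPM, 0.70). Of assembly factors, 1 of 15 for complex I (Ndufaf2, 20.2 to 11.9 CPM, -0.76) and 1 of 23 for complex IV (Cmc2, 15.5 to 9.51 CPM, -0.70) fell, and none of 9 for complexes II and III or of 4 for complex V was past 1.5-fold. Of 20 genes of the citric acid cycle and its entry 2 rose, the pyruvate dehydrogenase kinases Pdk2 (18 and 33 UMIs, 1.36) and Pdk3 (0.72), and 2 fell, Suclg2 (-0.78) and Pdk1 (45.9 to 29.1 CPM, -0.66). Among 9 regulators of mitochondrial biogenesis Ppargc1b, a coactivator of such genes, rose from 3.82 to 12.6 CPM (75 and 178 UMIs; 1.73, interval 1.33 to 2.14). Of 21 genes for mtDNA expression 1 fell, Top1mt, with an interval that includes 0, and of 78 mitochondrial ribosome genes 1 fell, Mrps28 (-0.62). The list medians ran from -0.32 for complex V assembly to 0.12 for carriers, beside -0.01 for all genes. In spleen neutrophils 33 of 67 compared mitochondrial ribosome genes rose and 1 fell, beside 20.7% of all genes higher and 16.7% lower, with a median of 0.58 beside -0.03. The granule protein list of immature neutrophils stood at 9389 and 60309 CPM in those cells, and its part was not tested.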

How the data were processed

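UMI counts per gene and cell barcode were deposited by the authors as 4 filtered matrices, made with Cell Ranger 6.0.0 per the file headers; the submitters' processing notes name Cell Ranger 3.1, Seurat 3.1 and 3.1.4, and the mm10 build. Libraries were 3' tag libraries of pooled cells, with 1 library per group, so no test across samples was possible and the comparisons carry no p-value. Barcodes with at least 500 UMIs, at least 200 genes and at most 10% mitochondrial UMIs were kept. Doublets were scored by Scrublet's procedure, rewritten for the purpose, and the highest 0.8% per 1000 barcodes were left out (3.85% to 6.49%). A cell entered a class with at least 3 of its markers and 2 more than of any other class. Macrophages were phagocytes with UMIs of at least 2 of C1qa, C1qb, C1qc and Ms4a7, and monocytes the others with Ly6c2, Ace or Cd300e.

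UMIs were summed per class and library and divided by the class total (CPM), and ratios carry an exact conditional binomial 95% interval. Genes needed 50 UMIs over both libraries, classes 50 cells in each, and 1.5-fold was the limit of size. On simulated data for tumour phagocytes, 1.43% of 10666 unchanged genes and 98% of 50 genes changed by a fold of 2 passed that limit. The simulation drew counting error alone from a profile pooled over both genotypes. It held no spread between cells, mice or libraries, so these shares are not error rates of the real comparison. Total counts ran from 46499361 to 63560706 UMIs per library.

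Named genes were the mtDNA genes at the ends of their range, nuclear genes past 1.5-fold in a class (the 3 highest and 3 lowest where there were many), those alike in sign in both organs, the extremes per complex, between classes and between organs, and the paralogs of complex IV. Other names, such as Cox5b and Sdhb between organs, and the genes of the pathway lists, were chosen after their values were seen. A result that this rule would name is not reported here. The members and lists were chosen with earlier results of these data known. Gene positions are from GENCODE vM21 (GRCm38), and promoters from RefSeq. Alternatives were other mitochondrial limits, scalings, weights, depths, gates, count minimums and folds. Software was Python 3.11.15, NumPy 2.4.6, SciPy 1.17.1, pandas 2.3.3 and matplotlib 3.10.9.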

Additional observations from a re-analysis of the deposited data

Results flagged for a closer look

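In neutrophils the mtDNA sum and 8 of the 13 mtDNA genes, given here, were at least 1.5-fold lower in KO in the tumour and at least 1.5-fold up in the spleen. Thinned to 1000 UMIs per cell, the spleen sum was 0.52, under 1.5-fold. The difference between organs was not tested, since each group is 1 library. The log2 ratio of KO over WT for the summed genes was -1.39 in tumour and 0.73 in spleen. For complex IV it was -1.02 and 0.73 for mt-Co1, -1.42 and 0.80 for mt-Co2, and -1.34 and 0.78 for mt-Co3. For mt-Cytb of complex III it was -1.70 and 0.70, and for mt-Atp6 of complex V -1.60 and 0.77. For complex I it was -1.49 and 0.81 for mt-Nd1, -1.04 and 0.61 for mt-Nd5, and -1.92 and 1.44 for mt-Nd6, which had 4 UMIs in the tumour KO neutrophils.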

How the results depend on the processing

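No paired analysis was possible because each group is 1 pooled library, and for the same reason no replicate could be left out. Of 103 values under other settings, 66 stayed close to the main one. No limit, a 20% limit and a 5% limit on mitochondrial UMIs gave 0.14, 0.115 and 0.0667 for the mtDNA sum of tumour phagocytes (main 0.09) and 0.12, 0.10 and 0.0555 in spleen (main 0.08). Equal weight per cell gave 0.11 and 0.13, thinning 0.12 and 0.13, and the loose gate 0.0925 and 0.0729, while in the tumour doublets kept gave 0.0705 and the strict gate 0.0700. The nuclear sum was 0.0106 under the loose gate in tumour, and in spleen -0.0163 with the 5% limit, 0.00757 with equal weight, 0.0215 thinned and -0.0158 with doublets kept. The count of members past the fold in tumour phagocytes (main 2) was 1 thinned (Sdhb, 0.61, with neither Cox6b2 nor Cox7a1), 1 with at least 200 UMIs (Cox7a1) and 4 at the smaller fold tried, and in spleen (main 0) 1 at that fold, mt-Nd4l. In the other classes the 125 calls (104 higher, 21 lower, of 1614 pairs of gene and class) became 77 when thinned (48 higher, 29 lower, of 1079). In neutrophils the tumour mtDNA ratio was -1.55 with no limit, -1.59 thinned, -1.08 with Retnlg and -1.81 without it, and the nuclear ratio 0.40 with Retnlg. The spleen mtDNA ratio was 0.69 with no limit, 0.52 thinned and 0.60 without granule-mRNA cells, and the nuclear ratio 0.0833 thinned and 0.0667 without those cells. Thinned, CD4 T cells were at 0.30, the highest class over the lowest at 3.07-fold, and the Cox6a2 share at 90%. The neutrophil subsets were chosen after seeing the data. Some settings left fewer cells or fewer genes to compare, and the cause of these moves was not tested. Pooling hides the spread between mice.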
